A study of Mus musculus with 9 samples.

Results

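Levels of 9 mouse genes that act between the Notch receptor at the cell surface and its target genes in the nucleus were followed through the cell types of the adult thyroid: Mib1, Lfng, Mfng, Rfng, Adam10, Numb, Rbpj, Maml1 and Maml2. They were chosen by name from the 52636 genes of the deposited count table, as the genes that process the receptor or its ligands or assist it in the nucleus. The samples were 9 pools of dissociated thyroid, each from 6 male C57BL/6 mice aged 10 to 12 weeks in one part of the submitters' text and 10 to 14 weeks in another. Every mouse had 1 intraperitoneal antibody injection and was examined after 7 days. Each of the 3 groups had 3 pools. RW mice received the anti-ragweed isotype control at 40 mg/kg, aJ1aJ2 mice received anti-Jag1 and anti-Jag2 at 20 mg/kg each, and aN1aN2 mice received anti-Notch1 at 5 mg/kg and anti-Notch2 at 10 mg/kg. Antibodies given this way reach the whole animal, so direct effects on a cell type and effects through other cells cannot be told apart. No group carries a genetic deletion.

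Notch receptors are activated when a ligand on a neighbouring cell is pulled inward, which exposes a site in the receptor to cleavage. MIB1 is the ubiquitin ligase that marks Delta and Jagged ligands for this endocytosis, and the fringe enzymes LFNG, MFNG and RFNG add N-acetylglucosamine to O-fucose on the receptor, which alters how well it answers each kind of ligand. ADAM10 makes the extracellular cut and gamma-secretase the cut within the membrane. NUMB is an endocytic adaptor that opposes Notch. The freed intracellular domain then joins the DNA-binding protein RBPJ and a coactivator of the Mastermind family, such as MAML1 or MAML2. In blood vessels Notch signalling is known for its part in sprouting and in arterial identity.

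The upstream sequences of 2 members that moved in opposite directions in the largest endothelial population are shown, so that the DNA next to their starts can be read. Both are the 250 bases before a RefSeq transcript start in GRCm38.p6, written 5′ to 3′ on the strand of the gene, with the RBPJ core motif TGGGAA (either strand, so also TTCCCA) in capitals. The Lfng stretch lies at chr5:140607091-140607340 on the plus strand, and the Numb stretch, the most upstream of its 3 listed starts, at chr12:83921935-83922184 on the minus strand.
Lfng: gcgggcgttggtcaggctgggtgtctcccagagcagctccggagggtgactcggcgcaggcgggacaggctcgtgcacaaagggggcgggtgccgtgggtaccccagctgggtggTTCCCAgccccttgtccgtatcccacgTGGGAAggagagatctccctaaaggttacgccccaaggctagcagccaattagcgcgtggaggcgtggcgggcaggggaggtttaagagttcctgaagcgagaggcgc
Numb: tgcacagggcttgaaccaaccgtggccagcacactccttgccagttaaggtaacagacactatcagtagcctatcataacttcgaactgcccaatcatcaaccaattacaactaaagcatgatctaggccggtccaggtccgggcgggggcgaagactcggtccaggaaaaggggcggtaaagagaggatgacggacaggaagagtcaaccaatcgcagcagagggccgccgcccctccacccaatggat
The Lfng stretch held 2 matches, beginning at bases -135 and -108 from the start, and the Numb stretch held 0. RefSeq windows of 300 bases (250 before and 50 after a start) were given for 7 of the 9 members, 11 windows in all, and 4 of these 11 held the motif, as did 25.6% of all 32851 windows in the table. Among the 4 were overlapping windows of Rbpj that share a match, so that site is counted in both. A match is a run of letters only, and was not tested for binding by RBPJ.

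The table held 10186 cells in 16 deposited cell labels and 63121420 unique molecular identifiers (UMIs, one per captured transcript), with 3013324 to 11880793 UMIs and 583 to 1805 cells per pool. Numbers in the sample titles fall into 3 ranges: RW 3 and aJ1aJ2 1 in the first, RW 1, RW 2, aJ1aJ2 3 and aJ1aJ2 4 in the second, and all 3 aN1aN2 pools in the third. Receptor blockade and the third range therefore cannot be told apart in any comparison with aN1aN2. The labels carried their own markers: the endothelial genes Pecam1, Cdh5, Kdr, Emcn and Plvap were all found in EC1, EC2, EC3 and EC4, and 7 of 7 thyrocyte markers in Th1, Th2 and Th3. The endothelial markers summed to 11800 CPM in EC1 and 10820 in EC4 but to 3621 in EC2 and 3403 in EC3, where the cells outside each label gave 2442 and 2427. The thyrocyte markers of Th2 summed to 28210 against 37610 outside it, so Th2 was not set apart by them. The labels F, M, S, T1, T2, SM and P held fibroblast, macrophage, Schwann, T or NK, thymocyte, mural and parathyroid markers, and Eryth1 and Eryth2 erythroid markers. Of the barcodes, 15 occurred in more than 1 library (30 cells). The pools count as separate samples, and p-values measure the spread between pools.

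The 9 genes gave between 830 UMIs (Rfng, in 696 cells) and 4826 UMIs (Adam10, in 2563 cells) over all cells. Levels are given as CPM, the UMIs of a gene per 1000000 UMIs of all cells of a label in a pool, for pools with at least 20 cells of the label, which left 12 labels with at least 2 RW pools. P and Th2 had no RW pool of that size and T2 and SM had 1 each, so these labels have no place in the order of RW levels. Because the labels were made from the same counts, differences between labels are described with no test. The 9 genes fell into several distributions. Lfng and Mfng had 78.9% and 84.1% of their UMIs in EC1 to EC4 and 3.43% and 4.48% in Th1, where these labels held 24.8% and 37.1% of the UMIs of all genes. Mib1, Rfng and Rbpj had more UMIs in Th1 than in any other single label, at 46.3%, 41.3% and 34.8% of their totals, near the 37.1% of all genes for Rfng and Rbpj. By CPM, Th1 ranked 6 of the 12 labels for Mib1 and Rfng and 9 for Rbpj. With the total taken without Tg, mitochondrial and globin UMIs it ranked 5 for Mib1, 3 for Rfng and 7 for Rbpj. Eryth1 and Eryth2 together held 1 to 17 UMIs of each gene.

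**Figure D1:**
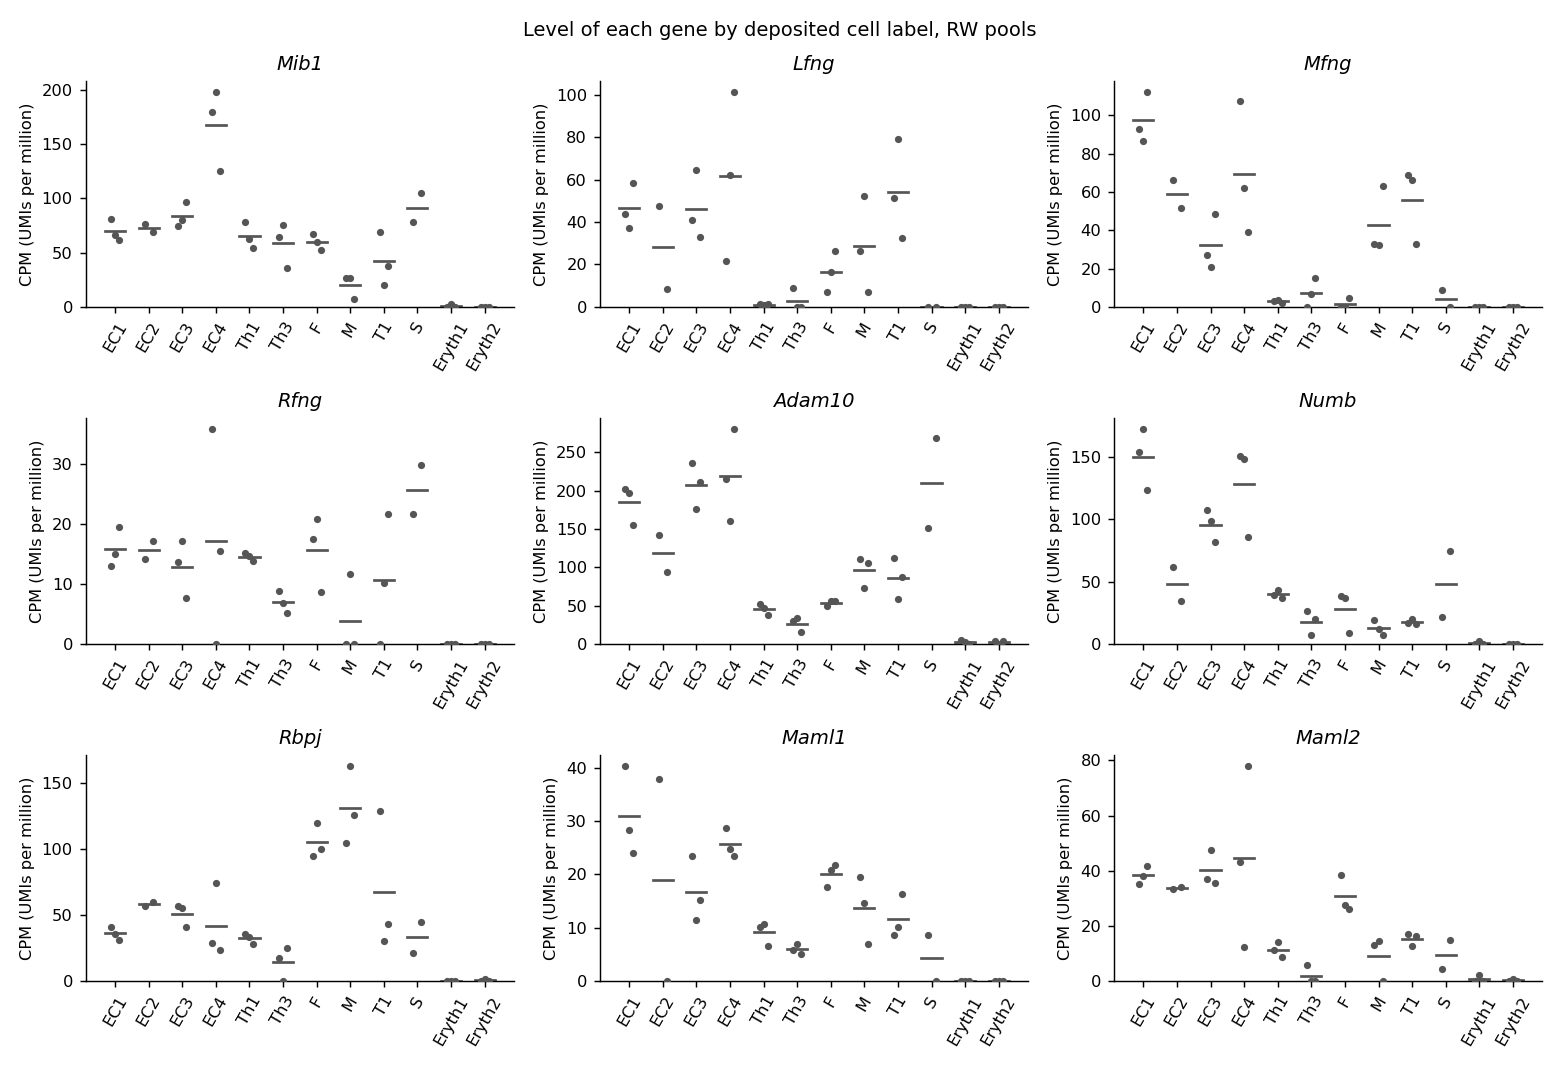
CPM (vertical axes, linear, from 0) of each of the 9 genes in the RW pools by deposited cell label (horizontal axes); each point is 1 pool and each line the mean. Lfng and Mfng lie near 0 in Th1 and S, Numb and Adam10 are high in EC1, EC3 and EC4, and the means of Rbpj are highest in M and F.

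Among RW pools, Mfng was highest in EC1, at 97.3 ± 13.3 CPM (SD, n = 3), followed by EC4 (69.5 ± 34.9), EC2 (58.9 ± 10.6, n = 2), T1 (55.8 ± 20.2), M (42.6 ± 17.8) and EC3 (32.2 ± 14.4). Neighbours in this order overlapped down to EC3, and no RW pool of EC3 lay as low as any of Th3, the next label. In Th1 the level of Mfng was 2.775 ± 0.62, and in F only 1 UMI was found in the 3 RW pools. Lfng was highest in EC4, at 61.6 ± 39.9, followed by T1 at 54.35 ± 23.3, EC1 at 46.5 ± 10.9 and EC3 at 46.25 ± 16.4, whose ranges overlapped, then by M (28.5 ± 22.8), EC2 (28.0 ± 27.5, n = 2) and F (16.45 ± 9.6). It was not detected in the 2 RW pools of S, where a count of 0 allows a level of up to 10.1 CPM, and stood at 0.97 ± 0.27 in Th1. Rfng stood between 12.8 and 17.2 CPM in EC1 to EC4, F and Th1, all with overlapping ranges. It was highest in S, at 25.75 ± 5.8 (n = 2, from 7 UMIs), where both pools were above every pool of those labels except EC4. Rfng was lower in Th3 (6.92 ± 1.86, from 5 UMIs), whose pools were all below those of Th1, and stood at 3.88 ± 6.7 in M (4 UMIs).

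Mib1 stood highest in EC4, at 167.5 ± 38.1 CPM, and the lowest of the 3 EC4 pools was above the highest of S, the next label. S, EC3, EC2, EC1, Th1, F and Th3 followed between 91.2 and 58.6 with overlapping neighbours, a span that covers thyrocytes, fibroblasts and the other endothelial labels. Adam10 was high in EC4 (219 ± 59.9), S (210.1 ± 82.7, n = 2), EC3 (208 ± 29.75) and EC1 (185 ± 25.6), which overlapped, and stood at 46.1 ± 7.3 in Th1. Numb was highest in EC1 (150.1 ± 24.9), EC4 (128 ± 36.9) and EC3 (95.9 ± 13.1). Every RW pool of these 3 labels was above both pools of S, the next label, and Th1 stood at 40.05 ± 3.1.

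The nuclear genes differed among themselves. Rbpj had its highest means in M (131 ± 29.7), F (105 ± 13.3) and T1 (67.6 ± 53.4), whose ranges overlapped, and in T1 the pool RW 1, at 128.8, was above every F pool. It was lower in EC1 (36.1 ± 4.7) and Th1 (32.4 ± 3.7). Maml1 was highest in EC1 (30.9 ± 8.4) and EC4 (25.6 ± 2.8), and Maml2 in EC4 (44.5 ± 32.8), EC3 (40.1 ± 6.5) and EC1 (38.3 ± 3.3). In M, where the mean of Rbpj was highest, Maml2 stood at 9.2 ± 8.0 and Maml1 at 13.7 ± 6.3. Counts of Maml2 are uncertain, because its annotated span (chr9:13297957-13709388, GRCm38) holds 4 other genes on the same strand, of which Gm47087 had 1210 UMIs and Phxr4 793. The span of Numb (chr12:83794034-83921934) likewise holds Gm3791, with 253 UMIs, so its counts are uncertain too.

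With both Jagged ligands blocked, none of the 9 genes passed an adjusted p of 0.05 in any label. Of 44 pairs of a member and a label that could be tested, 0 were called by edgeR's quasi-likelihood test and 0 by DESeq2, and 4 had an unadjusted p under 0.05. Across all genes this contrast called 1.43% of genes tested in EC1, 1.91% in EC2, 0.0618% in EC3, 0.903% in EC4, 0.579% in F and 0.612% in Th1, and 0% in M, S and T1. The 4 pairs were Lfng in EC1 and EC3, Mfng in EC2 and Mib1 in EC1. With Notch1 and Notch2 blocked, 9 of 36 pairs were called, in a setting where 17.8% of all genes tested in EC1 were called, 15.5% in EC2, 5.91% in EC3, 21.1% in EC4, 19.8% in F and 34.4% in Th1. The share of member pairs called was 25.0%, against 20.9% of all gene and label pairs in the same labels. Of the 9 calls, 7 were higher or lower values in EC1, EC3 and EC4 and the other 2 were higher values in Th1. Between the 2 blockades, 3 of 37 pairs were called (8.11%), where the whole table gave 13.5% in EC1, 10.5% in EC2, 1.27% in EC3, 17.2% in EC4, 16% in F, 4.05% in SM and 22.3% in Th1. Both contrasts against RW use the same 3 RW pools. All 9 genes were tested in EC1, 8 in EC3, 7 in Th1 (not Lfng and Mfng), 5 in EC4, 4 each in F and T1, 3 in EC2, 2 each in M and S, 1 in SM, and 0 in Th3, Eryth1 and Eryth2; the others had too few UMIs.

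**Figure D2:**
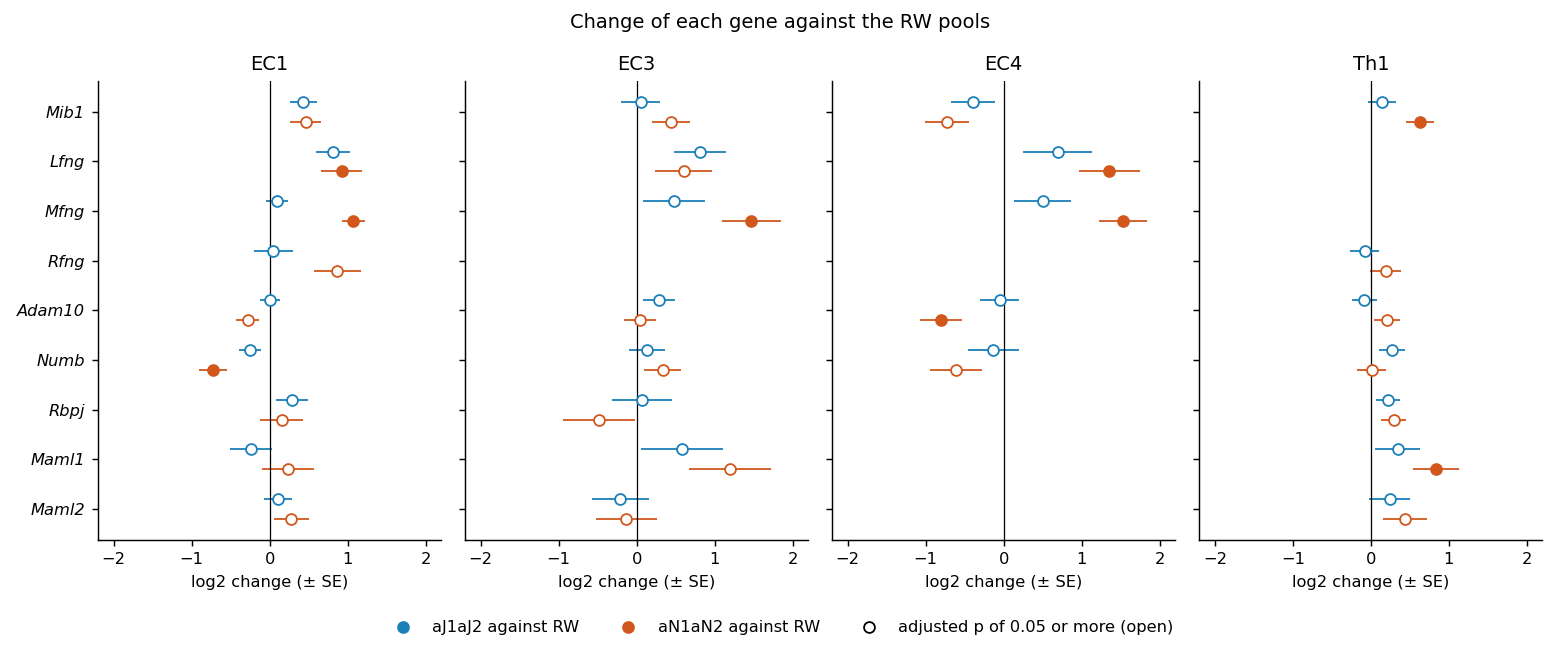
Log2 change (horizontal axes) of each gene in aJ1aJ2 pools (blue) and aN1aN2 pools (orange) against RW in 4 labels, with bars of 1 standard error; filled points have an adjusted p under 0.05 and genes not tested in a label have no point. Mfng rises by 1.07 to 1.52 in EC1, EC3 and EC4 of aN1aN2 pools, and no blue point is filled.

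Mfng (chr15:78755882-78773475), the manic fringe glycosyltransferase, rose in EC1, EC3 and EC4 after receptor blockade. Its calls against RW in EC1 and EC4 held in every alternative that was run, though some of these leave the fits of EC1 and EC4 unchanged. In EC1 the RW pools stood at 93.0, 86.7 and 112 CPM, the aJ1aJ2 pools at 94.8, 114 and 107, and the aN1aN2 pools at 219, 206 and 206. All 3 aN1aN2 pools were above every other pool, with a mean of 210.2 CPM against 97.3 in RW. The log2 change against RW was 1.07 (SE 0.15, adjusted p = 1.78e-05) and against aJ1aJ2 0.97 (SE 0.15, adjusted p = 8.71e-05), while ligand blockade against RW gave 0.10 (SE 0.14, adjusted p = 0.845). In EC4 Mfng stood at 108, 61.9 and 39.0 in RW, at 96.6, 100.2 and 92.65 in aJ1aJ2, and at 228, 223 and 207 in aN1aN2 (25, 43 and 105 UMIs per group). The aN1aN2 pools were again above all others, with a log2 change of 1.52 against RW (SE 0.31, adjusted p = 0.000614; 1.19 without RW 3 and 2.11 without RW 1) and of 1.03 against aJ1aJ2 (SE 0.28, adjusted p = 0.00890). The second of these calls was lost with DESeq2 (adjusted p = 0.0970) and without aJ1aJ2 4 (adjusted p = 0.0601).

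In EC3, Mfng stood at 27.3, 20.9 and 48.4 in RW, at 32.2 and 56.5 in the 2 aJ1aJ2 pools with enough cells, and at 61.9, 97.0 and 92.5 in aN1aN2. The aN1aN2 pools did not overlap the RW pools, with a log2 change of 1.47 (SE 0.38, adjusted p = 0.0309). This call was lost with DESeq2 (adjusted p = 0.0753), with a minimum of 10 cells (adjusted p = 0.0577), and without RW 1, RW 2, aN1aN2 2 or aN1aN2 3 (adjusted p = 0.0757 to 0.139). In EC2 the aN1aN2 pools, at 85.9, 72.8 and 38.9, overlapped the RW pools at 66.4 and 51.4, and the log2 change was 0.19 (SE 0.47, adjusted p = 0.841). The EC2 aJ1aJ2 pools stood at 126 and 98.4, above both RW pools, with a log2 change of 0.88 that did not pass (SE 0.35, adjusted p = 0.223).

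Lfng, the lunatic fringe enzyme, rose in EC1 and EC4 after receptor blockade. In EC1 it stood at 43.6, 37.4 and 58.6 in RW, at 47.4, 96.5 and 97.3 in aJ1aJ2, and at 70.8, 104 and 104 in aN1aN2. Every aN1aN2 pool was above every RW pool, and 2 of the 3 aJ1aJ2 pools were within the aN1aN2 range. The log2 change was 0.92 for aN1aN2 against RW (SE 0.26, adjusted p = 0.0160), 0.81 for aJ1aJ2 against RW (SE 0.22, adjusted p = 0.0676) and 0.11 for aN1aN2 against aJ1aJ2 (SE 0.25, adjusted p = 0.842). The receptor call was lost without RW 2, aN1aN2 2 or aN1aN2 3 (adjusted p = 0.0570 to 0.0945). The ligand value split by title range: in the first range the aJ1aJ2 pool (47.4) was below the RW pool (58.6), and in the second both aJ1aJ2 pools (96.5 and 97.3) were above both RW pools (43.6 and 37.4). It was called without a filter on low counts (adjusted p = 0.000663), without RW 3 (log2 change 1.05, adjusted p = 0.0156) and without aJ1aJ2 1 (1.02, adjusted p = 0.00206), and with the title range as a term it was 0.80 (adjusted p = 0.111). In EC4 Lfng stood at 21.5, 61.9 and 101 in RW, at 155, 111 and 58.5 in aJ1aJ2, and at 144, 164 and 199 in aN1aN2. The aN1aN2 pools did not overlap the RW pools, with a log2 change of 1.35 (SE 0.39, adjusted p = 0.0140), which was lost with DESeq2 (adjusted p = 0.0522). Without RW 1, which had 3 UMIs, it was 0.87 (adjusted p = 0.146), and without RW 3 it was 2.06 (adjusted p = 0.00278). In EC3 Lfng was not called, and the aN1aN2 pools (77.4, 42.4 and 92.5) overlapped the RW pools (41.0, 64.65 and 33.1). Both EC3 aJ1aJ2 pools with enough cells (89.7 and 70.65) were above every RW pool. In EC2, from few UMIs, the aN1aN2 pools (0, 24.3 and 19.5) overlapped the RW pools (47.5 and 8.57).

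Rfng, the radical fringe enzyme, ran at 13.0, 14.95 and 19.5 in RW, 16.3, 17.1 and 17.2 in aJ1aJ2, and 25.1, 32.0 and 34.8 in aN1aN2 in EC1. The aN1aN2 pools, with 34 UMIs in all, lay above every other pool. Even so the log2 change of 0.87 against RW did not pass (SE 0.30, adjusted p = 0.0511), nor did that of 0.82 against aJ1aJ2 (SE 0.31, adjusted p = 0.0909). Without RW 3 the first was called, at 1.08 (adjusted p = 0.0257). The value for aJ1aJ2 against RW was 0.05 (SE 0.26, adjusted p = 0.982). In Th1 Rfng stood at 14.5 ± 0.69, 13.7 ± 0.39 and 16.3 ± 2.0 CPM, with log2 changes of -0.08 in aJ1aJ2 (SE 0.18, adjusted p = 0.921) and 0.19 in aN1aN2 (SE 0.20, adjusted p = 0.491), and of 0.27 between the blockades (SE 0.20, adjusted p = 0.393). Lfng and Mfng were too low in Th1 to be tested, with 10 to 23 and 20 to 35 UMIs per group.

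**Figure D3:**
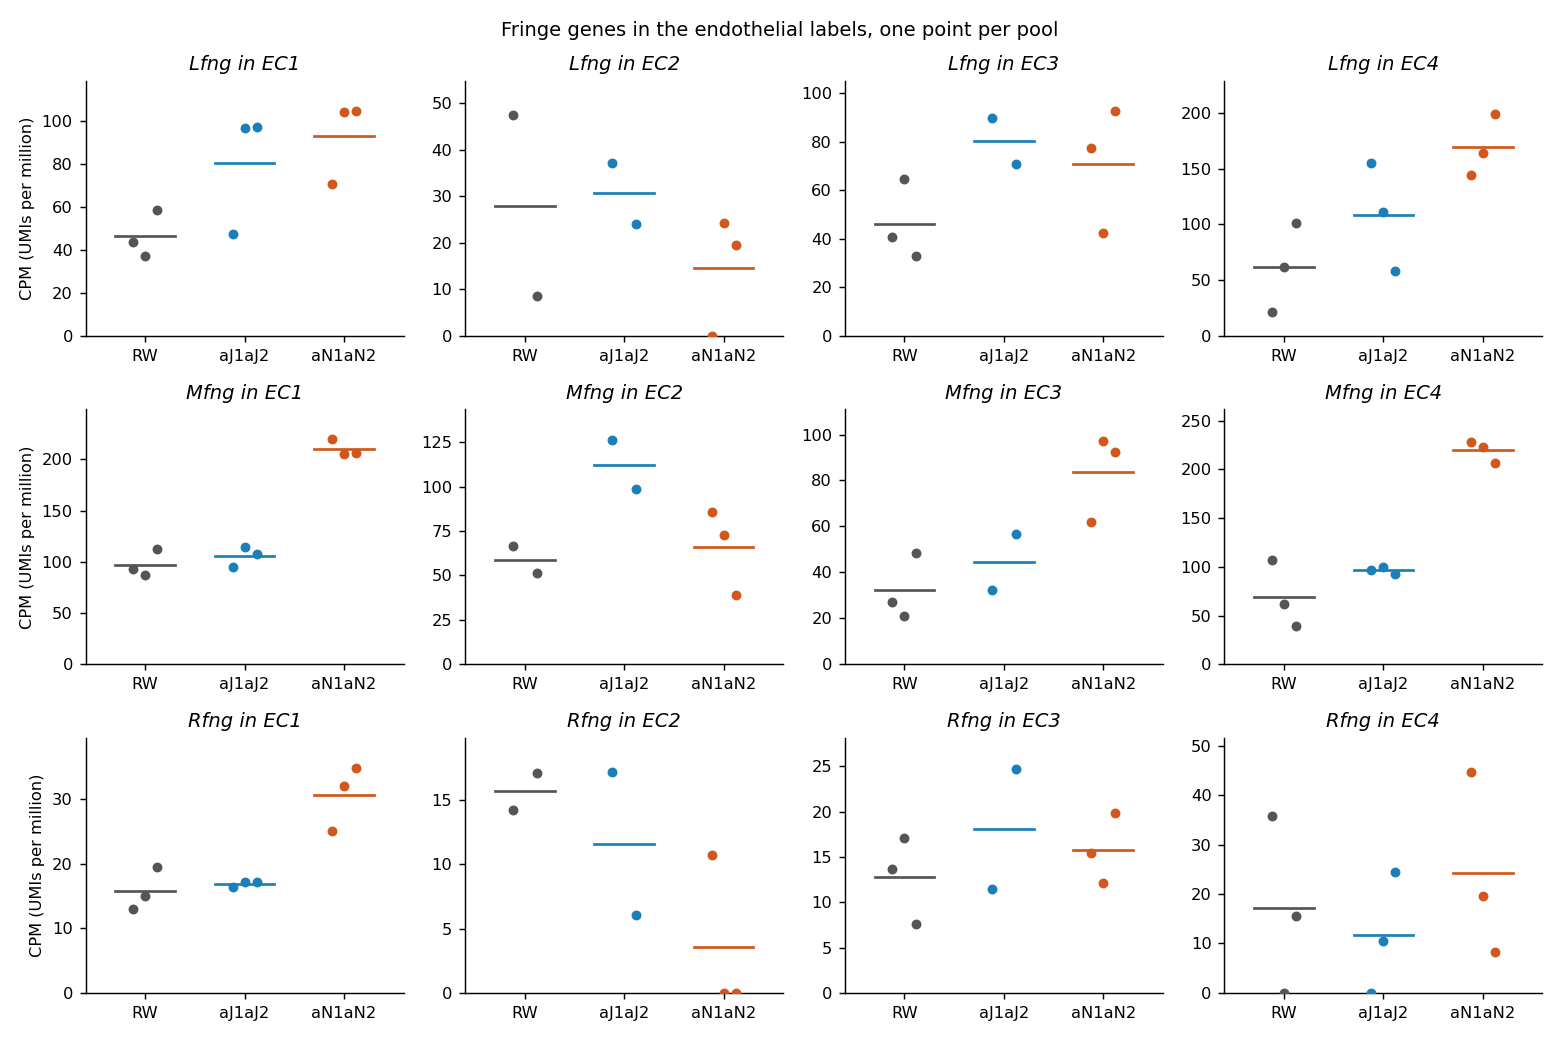
CPM (vertical axes, linear, from 0) of Lfng, Mfng and Rfng in the 4 endothelial labels; each point is 1 pool with at least 20 cells of the label, each line the group mean. The aN1aN2 pools of Mfng stand apart from all RW and aJ1aJ2 pools in EC1, EC3 and EC4 and overlap the RW pools in EC2.

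Several other measures moved with the aN1aN2 group in these labels. The endothelial cells were divided differently among the labels: EC1 held 72 to 117 cells per aN1aN2 pool against 182 to 288 per RW pool, and EC4 held 113 to 178 against 63 to 109. Changes within a label and a move of cells between labels cannot be told apart in these sums, for any gene in EC1 or EC4. In EC1 the median UMIs per cell were 2518 to 3533.5 in aN1aN2 against 4679 to 4968 in RW, and in EC3 3093 to 5071.5 against 5175.5 to 7011, while in EC4 they overlapped, at 939 to 1048 against 880 to 1159.5. Mitochondrial UMIs took a lower median share per cell in all 3 labels of aN1aN2 pools, at 3.75% to 4.41% against 4.77% to 6.31% in EC1, 3.62% to 4.42% against 5.35% to 6.27% in EC3, and 4.80% to 6.18% against 9.27% to 13.9% in EC4. The 5 endothelial markers, all found in every pool, summed in EC1 to 8928 to 9206 CPM in aN1aN2 and 12320 to 13390 in RW. Thyrocyte markers (5 or 6 of 7 found) summed to 1322 to 1942 against 699 to 974, and C cell markers (2 of 3) to 160 to 219 against 47.1 to 71.0. Parathyroid markers (1 of 3) summed to 180 to 286 against 38.9 to 71.9. Mfng and Lfng were near 0 in Th1, as given above, and at 0 UMIs in the only pool of P with 20 cells, aN1aN2 2. Macrophage markers were lower, at 0 to 6.33 against 62.8 to 164, and the 4 T or NK markers were at 0 in all 3 aN1aN2 pools of EC1. In EC4 the endothelial markers summed to 10100 to 10570 in aN1aN2 and 11880 to 12970 in RW, and C cell markers (2 of 3) to 283 to 522 against 93.3 to 156. In EC3 the 4 mural markers summed to 734 to 921 in aN1aN2 against 2617 to 4203 in RW (3 or 4 of 4 found), the lymphatic markers to 456 to 1331 against 1654 to 3133 (3 of 3), and the endothelial markers to 3998 to 5171 against 2542 to 3493. Mfng was at 0 UMIs in every SM pool with at least 20 cells, of which RW 3 was the only RW pool, and at 3 UMIs in the 8 SM cells of RW 1. The aJ1aJ2 pools of EC1 also stood apart from RW, with median UMIs per cell of 3473 to 4071, a mitochondrial share of 6.45% to 7.15%, above all RW and aN1aN2 pools, macrophage markers summing to 20.5 to 35.95 CPM (3 or 4 of 4 found) and mural markers to 27.8 to 55.6 against 57.6 to 189.6 in RW. In EC4 the mitochondrial share of the aJ1aJ2 pools was 12.4% to 16.6%, overlapping RW and above aN1aN2, and their endothelial markers summed to 9806 to 11340. The part of all these differences in the fringe values, under either blockade and between them, was not tested.

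Numb, the endocytic antagonist of Notch, fell in EC1 after receptor blockade. It stood at 154, 173 and 123 CPM in RW, at 147, 117 and 125 in aJ1aJ2, and at 98.2, 85.4 and 91.8 in aN1aN2. Every aN1aN2 pool was below every other pool. The log2 change against RW was -0.73 (SE 0.18, adjusted p = 0.00538), and it passed in every alternative that was run, though some of these leave the EC1 fit unchanged. Against aJ1aJ2 it was -0.48 (SE 0.18, adjusted p = 0.0903), and aJ1aJ2 against RW gave -0.25 (SE 0.14, adjusted p = 0.516). The aN1aN2 pools of EC1 also had fewer and shallower cells, a lower mitochondrial share and lower endothelial markers, as given above, and the part of these in the Numb value was not tested. In EC4 Numb stood at 128 ± 36.9, 106 ± 13.7 and 87.05 ± 30.3 in RW, aJ1aJ2 and aN1aN2, with overlapping ranges and a log2 change of -0.61 in aN1aN2 (SE 0.33, adjusted p = 0.221). In EC3 the value was 0.33 (SE 0.24, adjusted p = 0.488). In Th1 Numb stood at 40.05 ± 3.1, 48.0 ± 12.8 and 38.9 ± 9.1. The log2 change was 0.28 in aJ1aJ2 (SE 0.17, adjusted p = 0.535), 0.01 in aN1aN2 (SE 0.18, adjusted p = 0.981) and -0.27 between the blockades (SE 0.18, adjusted p = 0.334).

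Adam10, the protease of the extracellular cut, fell in EC4 and was not called in EC1. In EC4 it stood at 215, 161 and 281 CPM in RW, at 174, 163.5 and 258 in aJ1aJ2, and at 139, 138 and 132.5 in aN1aN2. The aN1aN2 pools were below all 6 others. The log2 change was -0.80 against RW (SE 0.27, adjusted p = 0.0316) and -0.75 against aJ1aJ2 (SE 0.26, adjusted p = 0.0477). Both calls were close to the threshold. The first was lost with DESeq2 (adjusted p = 0.158), with no filter (adjusted p = 0.144), with the replicate block (adjusted p = 0.295) and without RW 1, RW 3 or any aN1aN2 pool (adjusted p = 0.0718 to 0.221). The second was lost with DESeq2 (adjusted p = 0.238), with no filter (adjusted p = 0.278) and without RW 1, aJ1aJ2 4 or any aN1aN2 pool, with -0.43 (adjusted p = 0.450) without aJ1aJ2 4. The EC4 shifts in cell number, markers and mitochondrial share given for the fringe genes accompany these values, and those of Mib1 in EC4, and their part was not tested. In EC1 Adam10 stood at 203, 197 and 156 in RW, at 193, 181.5 and 191 in aJ1aJ2, and at 158, 152 and 155 in aN1aN2. The aN1aN2 pools overlapped RW 3, and the log2 change of -0.28 against RW did not pass (SE 0.14, adjusted p = 0.204). Without RW 3 it was -0.40 (adjusted p = 0.0492). Against aJ1aJ2 it was -0.29 (SE 0.15, adjusted p = 0.236), and aJ1aJ2 against RW gave 0.01 (SE 0.12, adjusted p = 0.998). In Th1 the log2 changes were -0.08 in aJ1aJ2 (SE 0.16, adjusted p = 0.886), 0.20 in aN1aN2 (SE 0.17, adjusted p = 0.382) and 0.29 between the blockades (SE 0.17, adjusted p = 0.268).

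Mib1, the ligand ubiquitin ligase, rose in the thyrocyte label Th1 after receptor blockade. In Th1 it stood at 77.9, 62.7 and 54.1 CPM in RW, at 46.6, 83.8 and 85.3 in aJ1aJ2, and at 98.0, 109.6 and 92.8 in aN1aN2. The 3 aN1aN2 pools were above all 6 others. The log2 change was 0.63 against RW (SE 0.18, adjusted p = 0.0144), which was lost without RW 3 (adjusted p = 0.0729) or aN1aN2 2 (adjusted p = 0.0567). Against aJ1aJ2 it was 0.49 (SE 0.18, adjusted p = 0.0701), which was called with no filter (adjusted p = 0.0183), without RW 1 (adjusted p = 0.0464) and without aJ1aJ2 3 (adjusted p = 0.0492), and aJ1aJ2 against RW gave 0.14 (SE 0.18, adjusted p = 0.801). The Th1 cells of aN1aN2 pools had median UMIs of 5737 to 7558, against 12535 to 22558 in RW, and parathyroid markers summing to 96.4 to 237 CPM against 6.67 to 38.4. The part of these in the Mib1 value was not tested. In Th3, the other thyrocyte label with enough cells, Mib1 had too few UMIs to be tested. It stood there at 64.55, 75.7 and 35.6 CPM in RW (40 UMIs), at 56.85, 27.0 and 43.6 in aJ1aJ2 (22 UMIs), and at 11.03, 5.745 and 127.2 in aN1aN2, from 1, 1 and 8 UMIs. In Th3, 2 aN1aN2 pools were thus below every RW pool and 1 was above them all. With Th1 and Th3 summed, the call for Mib1 against RW was kept. In the only P pool with at least 20 cells, aN1aN2 2, Mib1 stood at 44.6 CPM (9 UMIs).

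The EC4 values of Mib1 were lower under both blockades. It stood at 179, 198 and 125 in RW, at 116, 116 and 122 in aJ1aJ2, and at 104, 112 and 99.4 in aN1aN2. All pools of both blockades were below all RW pools, but with the total taken without Tg, mitochondrial and globin UMIs aJ1aJ2 4 (144.7) lay above RW 3 (137.4). Neither log2 change passed: it was -0.39 in aJ1aJ2 (SE 0.28, adjusted p = 0.690) and -0.73 in aN1aN2 (SE 0.28, adjusted p = 0.0656). In EC1 Mib1 stood at 69.6 ± 10.3 in RW, 93.0 ± 18.0 in aJ1aJ2 and 96.55 ± 18.05 in aN1aN2. The groups overlapped, with log2 changes of 0.43 (SE 0.17, adjusted p = 0.259), 0.47 (SE 0.20, adjusted p = 0.119) and, between the blockades, 0.03 (SE 0.20, adjusted p = 0.953). In F the aN1aN2 pools stood at 135, 72.4 and 84.1 against 66.75, 60.1 and 52.3 in RW, above all 3, with a log2 change of 0.75 that did not pass (SE 0.30, adjusted p = 0.0851). In EC3 the aN1aN2 pools stood at 108.3, 121.2 and 99.1 against 74.1, 79.9 and 96.9 in RW, above all 3, and Mib1 was not called there.

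Whether a gene answered differently in a label than in Th1 was tested with the pool as a block. A gene could enter through its UMIs in Th1 alone. The differences tested therefore include some with few or no UMIs in the other label, as in Eryth1, Eryth2 and Th3. Of 146 such differences over the 9 genes, 11 labels and both contrasts against RW, 1 was called, where all genes gave 1.58%. It was Mib1 in EC4 under receptor blockade: its log2 change in EC4 minus that in Th1 was -1.27 (SE 0.35, adjusted p = 0.0115), in a comparison that called 5.54% of all genes. The difference was -1.33 with DESeq2 size factors (adjusted p = 0.00670). It was lost without RW 1, RW 2 or any aN1aN2 pool (adjusted p = 0.0510 to 0.0757), with values from -1.30 to -1.12 over all pools left out in turn. For Numb in EC1 the difference from Th1 was -0.75 (SE 0.25, adjusted p = 0.0659), and for Adam10 -0.54 in EC1 (SE 0.19, adjusted p = 0.0834) and -0.93 in EC4 (SE 0.34, adjusted p = 0.0907). Lfng and Mfng were too low in Th1 for their differences from it to be read.

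**Figure D4:**
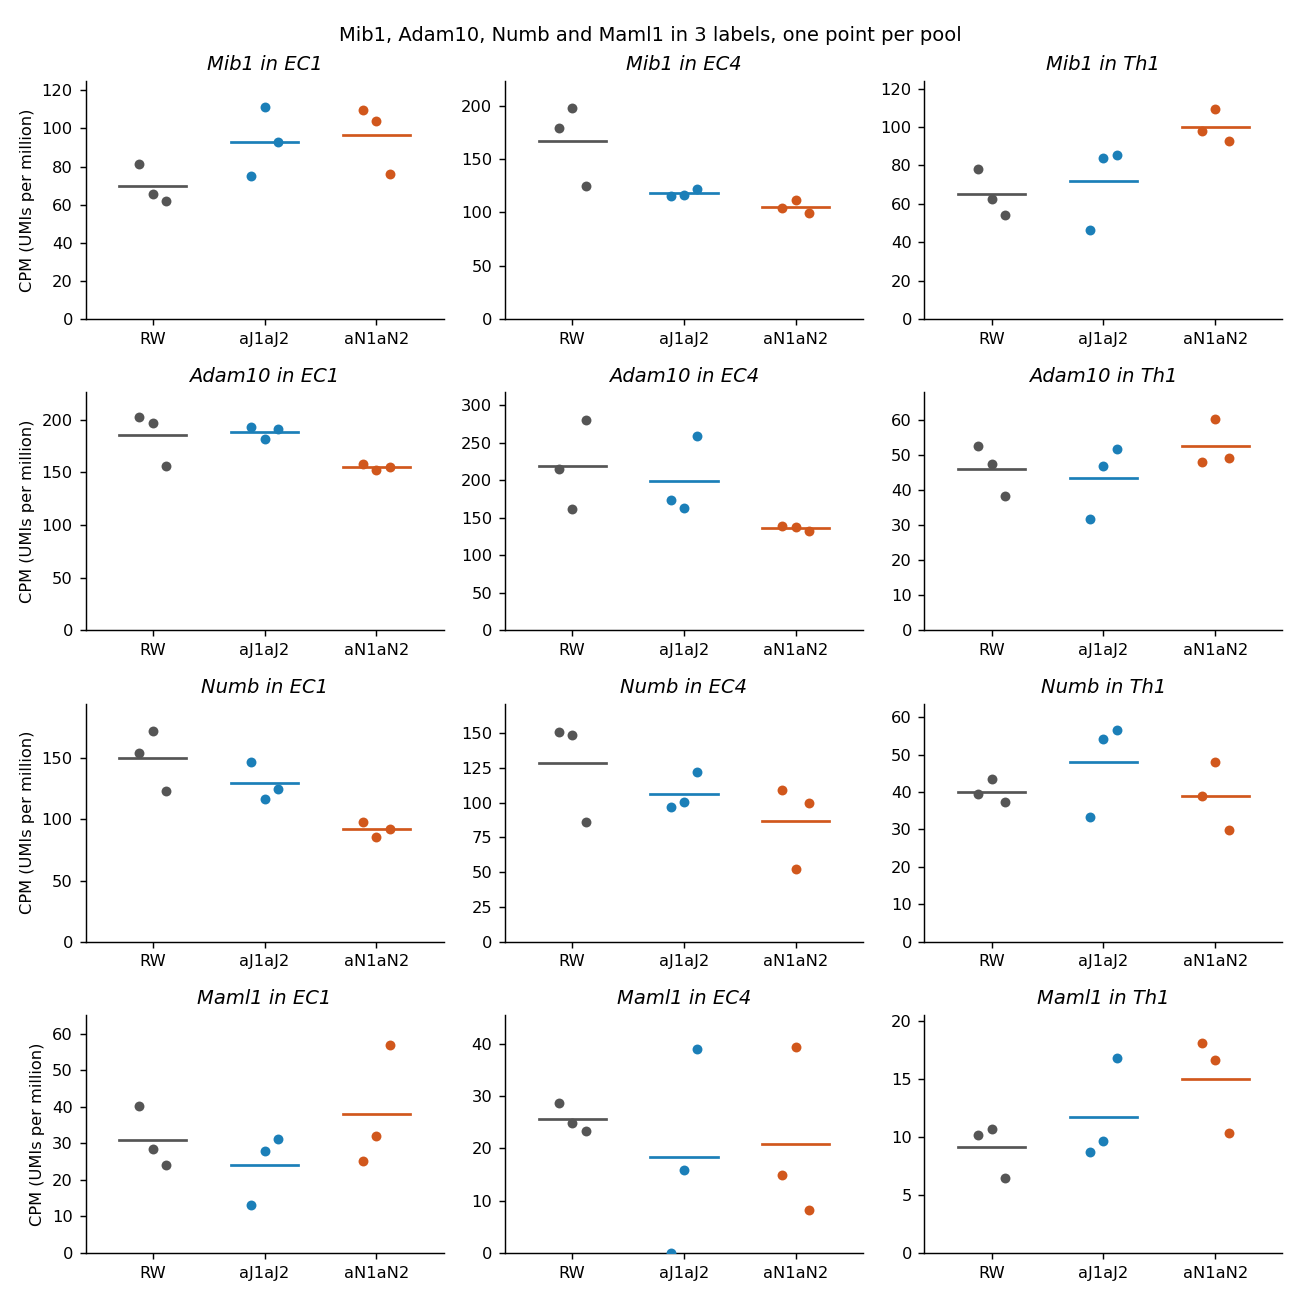
CPM (vertical axes, linear, from 0) of Mib1, Adam10, Numb and Maml1 in EC1, EC4 and Th1; each point is 1 pool and each line the group mean. Mib1 is higher in all aN1aN2 pools than in all RW pools in Th1 and lower in EC4, and Numb is lower in all aN1aN2 pools of EC1.

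Of the nuclear genes, only Maml1 was called, and in Th1 only. It stood at 10.2, 10.7 and 6.5 CPM in RW, at 8.7, 9.62 and 16.8 in aJ1aJ2, and at 18.1, 16.6 and 10.3 in aN1aN2. The aN1aN2 and RW pools overlapped, with 69 UMIs in the first and 96 in the second. The log2 change was 0.83 against RW (SE 0.30, adjusted p = 0.0415), and was lost with DESeq2 (adjusted p = 0.108), with the replicate block (adjusted p = 0.0551) and without RW 3, aN1aN2 1 or aN1aN2 2 (adjusted p = 0.116 to 0.195). Against aJ1aJ2 it was 0.49 (SE 0.30, adjusted p = 0.278), and aJ1aJ2 against RW gave 0.35 (SE 0.29, adjusted p = 0.674). The Th1 depth and marker shifts given for Mib1 hold here too, and their part was not tested. In EC1 Maml1 stood at 30.9 ± 8.4, 24.04 ± 9.6 and 38.04 ± 16.7. Its log2 change was -0.24 in aJ1aJ2 (SE 0.27, adjusted p = 0.786), 0.23 in aN1aN2 (SE 0.34, adjusted p = 0.698) and 0.48 between the blockades (SE 0.35, adjusted p = 0.447).

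Rbpj, the DNA-binding partner, stood in EC1 at 36.1 ± 4.7, 43.6 ± 13.4 and 40.3 ± 4.8 CPM in RW, aJ1aJ2 and aN1aN2. For Rbpj the log2 change was 0.29 in aJ1aJ2 (SE 0.21, adjusted p = 0.639), 0.15 in aN1aN2 (SE 0.27, adjusted p = 0.765) and -0.14 between the blockades (SE 0.27, adjusted p = 0.820). In Th1 it stood at 32.4 ± 3.7, 37.75 ± 6.9 and 38.4 ± 7.0, with log2 changes of 0.22 (SE 0.15, adjusted p = 0.596), 0.29 (SE 0.16, adjusted p = 0.182) and 0.07 (SE 0.16, adjusted p = 0.814). In F and M, where the means of Rbpj were highest, the aJ1aJ2 pools stood at 98.5 to 114 and 138.5 to 169 against 94.85 to 120.2 and 104 to 163 in RW, and both sets overlapped. The aN1aN2 pools of F stood at 101.5, 96.55 and 84.1, overlapping the RW pools, with a log2 change of -0.13 (SE 0.24, adjusted p = 0.758). Receptor blockade was not tested in M, where no aN1aN2 pool had more than 10 cells. Maml2 stood in EC1 at 38.3 ± 3.3, 41.8 ± 3.0 and 47.3 ± 9.9, with log2 changes of 0.11 (SE 0.18, adjusted p = 0.874), 0.28 (SE 0.22, adjusted p = 0.444) and 0.17 (SE 0.23, adjusted p = 0.715). In Th1 it stood at 11.2 ± 2.7, 12.7 ± 4.6 and 14.8 ± 2.2, with log2 changes of 0.24 (SE 0.26, adjusted p = 0.763), 0.44 (SE 0.28, adjusted p = 0.256) and 0.20 (SE 0.29, adjusted p = 0.687). In EC3 the log2 changes under receptor blockade were -0.48 for Rbpj (SE 0.46, adjusted p = 0.626), 1.19 for Maml1 (SE 0.52, adjusted p = 0.219) and -0.13 for Maml2 (SE 0.39, adjusted p = 0.896), and in EC4 all 3 genes had too few UMIs to be tested.

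The same steps of the pathway are run by 34 further genes counted here, in 4 groups. Under ligand blockade 1 of the 31 tested in EC1 was called: Nrarp, a small inhibitor of the RBPJ complex and itself a known Notch target, fell by 1.04 on the log2 scale (SE 0.22, adjusted p = 0.0186), from a mean of 125 to 67.45 CPM. In Th1, 0 of 29 were called by edgeR, with an unadjusted p under 0.05 for Cdk8 and Cir1, and the shares over all genes were 1.43% in EC1 and 0.612% in Th1. Under receptor blockade 8 of 31 were called in EC1, 7 higher and 1 lower, and 9 of 29 in Th1, 8 higher and 1 lower, beside 17.8% and 34.4% of all genes. Elsewhere 2 of 23 were called in EC3, 3 of 17 in EC4, 1 of 21 in F and 0 of 6 in EC2. All genes gave 5.91%, 21.1%, 19.8% and 15.5% in these labels. In Th3 0 of 4 were called, where all genes gave 105 of 2087. The lower one in EC1 was again Nrarp, at 70.6 CPM and a log2 change of -0.85 (SE 0.26, adjusted p = 0.0283). The shifts in cell number, depth, mitochondrial share and markers given for EC1, and those in depth and parathyroid markers given for Th1, accompany all of these receptor-blockade calls, those given for the aJ1aJ2 pools of EC1 accompany the ligand-blockade call of Nrarp, and their part was not tested. No alternative settings were run for the 34 genes.

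Of the gamma-secretase genes counted here, 1 of 5 tested was called in EC1 under receptor blockade and 2 of 6 in Th1, all higher. They were the subunit Ncstn in EC1 (log2 change 0.60, SE 0.19, adjusted p = 0.0274), and in Th1 Aph1c (1.93, SE 0.40, adjusted p = 0.00181) and Aph1a (0.52, SE 0.13, adjusted p = 0.00504). Aph1c was scarce, at 2.35 CPM in RW and 8.125 in aN1aN2. The same 2 Th1 genes were also called in Th1 between the blockades, with 1.59 for Aph1c and 0.48 for Aph1a. Of the receptor processing and trafficking genes, Furin, the convertase of the Notch precursor, and Itch, a ubiquitin ligase of Notch, were called in both labels. Furin rose by 1.30 in EC1 (SE 0.16, adjusted p = 4.81e-06), from 63.7 to 159 CPM, and by 0.44 in Th1 (SE 0.13, adjusted p = 0.0193). Itch rose by 0.96 in EC1 (SE 0.19, adjusted p = 0.00117) and by 0.43 in Th1 (SE 0.13, adjusted p = 0.0157). Between the blockades Furin was higher by 0.83 in EC1 and 0.60 in Th1, and Itch by 0.77 in EC1.

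Among the other ligand ubiquitin ligases, 1 of 3 tested was called in EC1 and 1 of 2 in Th1. Neurl1b rose in EC1 by 1.51 against RW (SE 0.24, adjusted p = 9.50e-05) and by 1.785 against aJ1aJ2 (SE 0.26, adjusted p = 3.80e-05), with means of 24.9, 20.4 and 69.8 CPM in RW, aJ1aJ2 and aN1aN2. Neurl3 fell in Th1, with log2 changes of -2.51 against RW (SE 0.61, adjusted p = 0.00488) and -2.64 against aJ1aJ2 (SE 0.62, adjusted p = 0.00649), at 5.35, 6.39 and 0.93 CPM. Of the other nuclear cofactors, 4 of 14 tested were called in EC1 and 4 of 13 in Th1. In EC1 they were the corepressors Spen (0.85, SE 0.20, adjusted p = 0.00426) and Cir1 (0.72, SE 0.19, adjusted p = 0.0115) and the acetyltransferase Ep300 (0.53, SE 0.18, adjusted p = 0.0420), all higher, beside the lower Nrarp. In Th1 they were Cir1 (0.79, SE 0.15, adjusted p = 0.000766), Maml3, the third Mastermind coactivator (0.76, SE 0.28, adjusted p = 0.0438), Cdk8, a kinase that acts on the Notch intracellular domain (0.76, SE 0.17, adjusted p = 0.00321), and Ep300 (0.52, SE 0.14, adjusted p = 0.0118), all higher. Between the blockades Cir1 was called in Th1 (0.43). The median log2 change of the tested genes of the 4 lists under receptor blockade ranged from -0.11 to 0.41 in EC1 and from -1.05 to 0.33 in Th1, where that of all genes was -0.01 and 0.02.

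**Figure D5:**
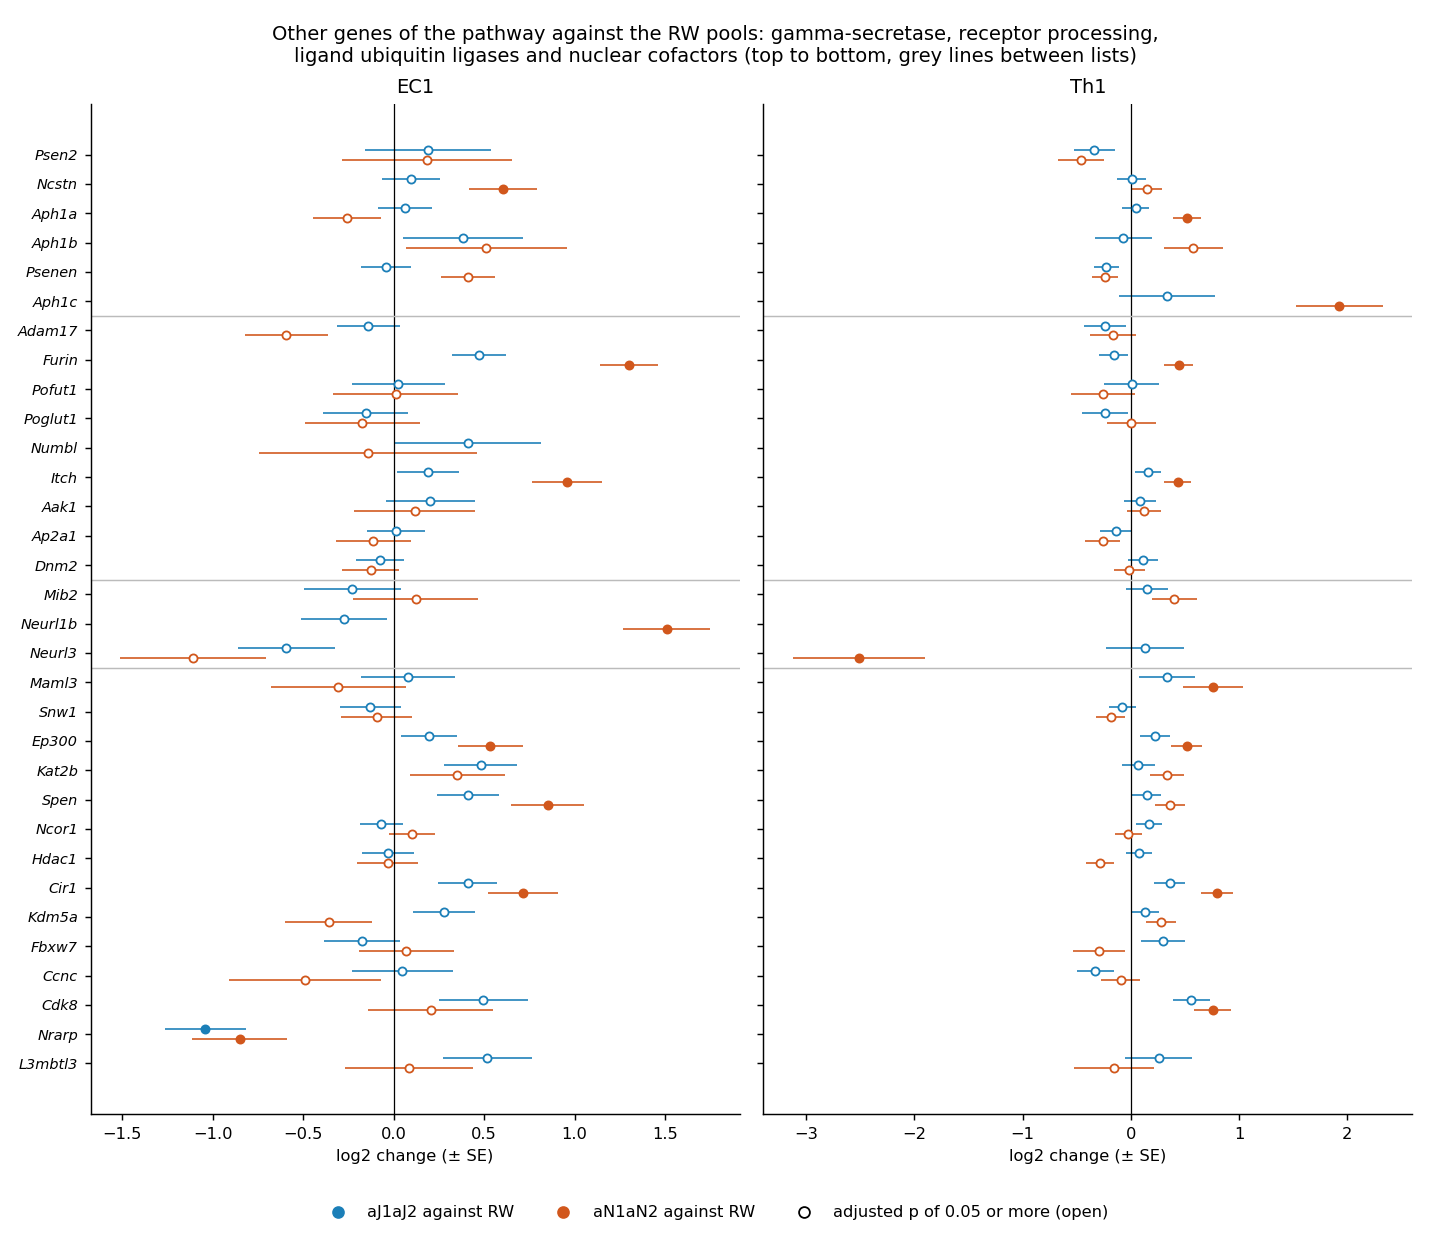
Log2 change (horizontal axes, on separate scales) of the other genes of the pathway in EC1 and Th1 of aJ1aJ2 pools (blue) and aN1aN2 pools (orange) against RW, with bars of 1 standard error; filled points have an adjusted p under 0.05. Nrarp in EC1 is the only filled blue point, and 17 orange points are filled over both labels, 15 of them higher.

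By the pattern over the 12 labels in RW pools, the genes most like each member were, among 7860 genes with at least 354 RW UMIs, Lpar6 and St8sia4 for Mfng (Pearson's r of mean log2 levels 0.971 for both), Adgre5 and Sp100 for Lfng (0.967 and 0.959), and Kif1b and Nploc4 for Rfng (0.978 and 0.968). They were Xpo7 and Scap for Mib1 (0.987 and 0.9845), Klhl28 and Tmem168 for Adam10 (0.978 and 0.976), and Vgll4 and Ankrd50 for Numb (0.979 and 0.971). For the nuclear genes they were Gusb and Lgals3bp for Rbpj (0.944 and 0.936), St3gal1 and Smarcd2 for Maml1 (0.954 for both) and Ly6a and Nck1 for Maml2 (0.967 for both). Among the members themselves the closest pairs were Lfng with Mfng (0.891) and Rfng with Mib1 (0.890), and the least alike was Lfng with Rfng (0.282). These correlations run over labels that share libraries and differ widely in depth, and are given as a description.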

How the data were processed

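Thyroid cells of 9 pools were measured by droplet single-cell RNA sequencing of transcript 3′ ends. The authors deposited whole-number UMI counts per gene and cell with an annotation of each cell, per the file headers; the submitters' processing notes name Cell Ranger and GRCm38, and the Cell Ranger version is not given in the sources used here. Cell labels were taken from the deposited annotation. How doublets were treated is not given in the sources used here, and no doublet caller was run. Annotation lines shifted by a comma (2619) were realigned. Levels (CPM, counts scaled to a common total) depend on the total of the label, so a change in an abundant gene moves all others.

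From the deposited counts, UMIs were summed per pool and label (at least 20 cells). The test was edgeR 4.0.16 quasi-likelihood in R 4.3.3, all 3 groups in 1 fit, filterByExpr, TMM, 2-sided, with Benjamini-Hochberg adjustment over all genes of a label and a threshold of 0.05. A contrast needed 2 pools per group. The difference of responses used the pool as a block. The script was tested on simulated data. Standard errors were |log2 change| divided by the square root of F. Likeness used mean log2(CPM + 10). The members and lists were chosen with earlier results of these data known. The rule was to name all 9 genes in every label; most pairs of a gene and a label outside Th1, EC1 and called labels are given only as counts of pairs tested and called. Log2 changes were printed for Th1, EC1 and called labels, with some others added after their values were seen. Of the pathway lists, up to 4 called genes per list and contrast were named. 2 genes of these lists are not reported here. Alternatives were DESeq2 1.42.0, its size factors, no filter, 10 cells, only 2 groups, a replicate block, the title range as a term, Th1 and Th3 summed, and each pool left out. With UMIs summed over all labels, no 2 pools of a group agreed within sampling noise (chi-square per degree of freedom 8.35 to 94.3). Differences in the mix of cell types enter this figure, and it was not computed within labels. The 30 cells with a shared barcode were kept. Promoters came from RefSeq (GRCm38.p6), gene spans from the annotation of the same build.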

Additional observations from a re-analysis of the deposited data

Results flagged for a closer look

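Mib1 is listed here because its response to receptor blockade differed between cell labels in a test of the difference itself. It was the only call among 146 such differences over the 9 genes, where 1.58% were called over all genes, and the comparison of EC4 with Th1 called 5.54% of all genes. These counts include differences with few or no UMIs in the label compared with Th1. The log2 change of aN1aN2 against RW in EC4 minus that in Th1 was -1.27 (SE 0.35, edgeR adjusted p = 0.0115), with lower values in all 3 aN1aN2 pools than in all 3 RW pools of EC4 and higher values in all 3 aN1aN2 pools of Th1. In Th3, the other thyrocyte label with enough cells, 2 aN1aN2 pools (1 UMI each) were below every RW pool and 1 was above them all. In EC3 all 3 aN1aN2 pools were above all 3 RW pools, with no call. EC4 rested on 57 Mib1 UMIs in RW and 50 in aN1aN2, and the change within EC4 did not pass on its own (adjusted p = 0.0656). Leaving out each pool in turn, an alternative chosen after seeing the data, gave -1.30 to -1.12, with adjusted p from 0.0142 to 0.0757. Of the pools compared, the call was kept without RW 3 (adjusted p = 0.0360) and lost without RW 1, RW 2 or any aN1aN2 pool, and it was kept without any of the aJ1aJ2 pools, which are not part of the contrast. EC4 held more cells in every aN1aN2 pool than in any RW pool, mitochondrial UMIs took a lower share in them, and Th1 cells of aN1aN2 pools were shallower; their part in the difference was not tested.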

How the results depend on the processing

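The number of members called under ligand blockade was 0, and 1 with no filter on low counts (Lfng in EC1), with 0 to 1 over single pools left out. Under receptor blockade it was 9, fell to 5 with DESeq2, and ranged from 4 (without aN1aN2 2) to 9 over single pools left out. Between the blockades it was 3, fell to 1 with DESeq2, and ranged from 1 (without aJ1aJ2 4) to 4. The difference of responses in Mib1 gave 1 call with either normalization. With the replicate number as a block, on the RW and aN1aN2 pools numbered 1 and 2, receptor blockade gave 7 calls. Same-numbered pools among these did not deviate together across genes (correlations -0.0134 and 0.0244 in Th1, -4e-05 and 0.0173 in EC1). RW 3 and aN1aN2 3 were not compared in this way, and no pairing was assumed. Of 856 alternatives for single genes, 785 kept direction and call, 40 lost and 8 gained the call, and 23 changed sign, all of values that did not pass. The signs that changed with a setting were Adam10 in EC1 under ligand blockade with no filter (-0.002033), Maml1 in EC1 under receptor blockade with the replicate block (-0.32), Numb in Th1 under receptor blockade with no filter (-0.029), size factors (-0.0025) and DESeq2 (-0.015), and Mib1 in EC1 between the blockades with no filter (-0.0362). Over pools left out, ligand blockade ranged from -0.0406 to 0.486 for Rbpj, -0.0712 to 0.266 for Rfng and -0.110 to 0.0785 for Adam10 in EC1, and from -0.217 to 0.0549 for Adam10 in Th1. Receptor blockade ranged from -0.14 to 0.48 for Maml1 in EC1 and -0.14 to 0.11 for Numb in Th1. Between the blockades the ranges in EC1 were -0.34 to 0.20 for Rbpj, -0.01 to 0.32 for Maml2, -0.10 to 0.29 for Lfng and -0.0778 to 0.179 for Mib1, and -0.0552 to 0.163 for Rbpj in Th1. The cause was not tested. With the total taken without Tg, mitochondrial and globin UMIs, 17 of 108 levels moved by more than 1 SD. The shallow EC4 cells (a median of 880 to 1159.5 UMIs in the RW pools) left 4 of the 9 genes too sparse to test there.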
